A study of Homo sapiens with 6 samples.

Results

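The DLK1-RTL1-MEG3 domain is an imprinted region of human chromosome 14, and 4 of its genes, taken by symbol from the 27961 gene symbols counted, are described here. DLK1 and RTL1 are protein-coding genes read from the chromosome inherited from the father. MEG3 and MEG8 are noncoding RNA genes read from the one inherited from the mother. Total RNA, depleted of ribosomal RNA, was sequenced from SH-SY5Y, an established neuroblastoma line, in 6 libraries. A pair carried the TARDBP hairpin TRCN0000016038, which targets the mRNA of the RNA-binding protein TDP-43. Another pair carried control hairpin 1 (SHC007) and the last pair control hairpin 2 (SHC016). All groups shared lentiviral infection by spinning with 8 µg/mL polybrene and selection in 2 µg/mL puromycin, begun 48 hours after infection and lasting 3 days. TARDBP was targeted with 1 hairpin, so an effect of lower TARDBP and an effect of that hairpin on other transcripts cannot be told apart.

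In an imprinted domain only 1 parental copy of a gene is active, and DNA methylation laid down in the germ line marks which copy that is. In this domain the paternal copy, methylated between DLK1 and MEG3, normally expresses DLK1, RTL1 and DIO3. The unmethylated maternal copy normally expresses MEG3, MEG8 and, downstream in the same orientation, a long row of microRNAs and small nucleolar RNAs. DLK1 is a transmembrane protein of the Delta family found on neuroendocrine, adrenal and other progenitor cells. RTL1 is a gene derived from a retrotransposon and is known for its role in placental capillaries and fetal muscle. MEG3 is a long noncoding RNA with growth-suppressing activity in tumour cells, and MEG8 is the host transcript of small nucleolar RNAs.

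The pattern was uneven within the domain. DLK1 and RTL1 were well expressed with both control hairpins and were lower in both TARDBP hairpin libraries than in any control library. MEG3 had 1 count in the 6 libraries together, and MEG8 had 5 to 20 counts a library in every group. The genes were chosen by their symbols with the levels and fold changes of these same hairpin comparisons in view, so those values are a description and carry no test. Of all 17163 genes and repeat families with enough counts to be tested, 22.8% also had both TARDBP hairpin libraries below all 4 control libraries and 23.3% had both above. Against the mean of both controls 48.2% passed the test across all rows, against control hairpin 1 alone 42.9% (21.8% lower) and against control hairpin 2 alone 50.2% (26.2% lower). With upper quartile scaling in place of the scaling used here, 63.4% rather than 49.6% of the calls against the mean of both controls were higher. Nothing about the 4 genes is read from these shares.

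Because the MEG3 row was almost empty, the stretch around its start is shown. The 300 bases from RefSeq, build GRCh38.p14, chr14:100825858-100826157, plus strand, hold 250 bases before the first of the MEG3 starts listed there and the 50 bases that follow. The capitals mark TGACGTCA, the full cAMP response element, a motif bound by CREB-family factors.
MEG3 promoter: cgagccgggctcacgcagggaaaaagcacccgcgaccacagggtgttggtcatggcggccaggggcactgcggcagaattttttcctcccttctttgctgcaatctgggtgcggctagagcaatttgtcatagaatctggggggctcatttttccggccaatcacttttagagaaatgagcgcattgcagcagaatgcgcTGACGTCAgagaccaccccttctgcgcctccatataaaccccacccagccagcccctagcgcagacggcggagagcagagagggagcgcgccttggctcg
The motif begins at base 201 of this window and is its own reverse complement. It was present in 1.85% of the 35116 promoter windows of the same length. The window also held 1 match to TATAAA, searched on both strands, which 11.5% of all windows contained, and 19 CpG sites against a median of 14 over all windows. The windows of RTL1 and DIO3 held no TGACGTCA and had 6 and 28 CpG sites, and that of DIO3 also held 1 match to TATAAA. The set of windows had none for DLK1 or MEG8, so these genes were not searched. These are matches of letters only, and methylation was not measured.

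A second set of sequences bears on RTL1. MIR431, MIR433, MIR127, MIR432 and MIR136 lie on the plus strand inside the coding sequence of RTL1, which is on the minus strand, in the GENCODE v29 annotation. The mature microRNAs made from them are therefore perfect complements of RTL1 mRNA. For each pair, taken from RefSeq for the microRNA and GENCODE v29 for RTL1, capitals mark the seed (bases 2 to 8) and the bases of RTL1 opposite it.
hsa-miR-433-3p: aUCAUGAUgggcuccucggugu
RTL1 site of miR-433-3p: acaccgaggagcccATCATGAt
hsa-miR-127-3p: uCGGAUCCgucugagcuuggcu
RTL1 site of miR-127-3p: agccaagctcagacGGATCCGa
hsa-miR-431-5p: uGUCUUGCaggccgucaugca
RTL1 site of miR-431-5p: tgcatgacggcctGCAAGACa
hsa-miR-136-5p: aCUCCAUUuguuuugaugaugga
RTL1 site of miR-136-5p: tccatcatcaaaacaAATGGAGt
The mature sequences lie at chr14:100881949-100881970, chr14:100883035-100883056, chr14:100881026-100881046 and chr14:100884716-100884738 of GRCh38.p14, in the order shown. Counted from the first base of the longer RTL1 transcript in GENCODE v29, the sites start at bases 3181, 2095, 4105 and 413. No 2 of the 4 share a seed.

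The targeted gene was lower in both libraries labelled with its hairpin. TARDBP had 365 and 462 counts with the TARDBP hairpin, against 1587 and 1478 for control hairpin 1 and 1761 and 1730 for control hairpin 2. Library totals ran from 18605745 to 21698339 counts. Levels are in counts per 1000000 (CPM) after scaling by the trimmed mean of M-values (TMM), and n is 2 libraries in every group. No label states that the libraries within a group were grown separately, so every SD, SE and p-value covers only their spread, which may be technical. Of 16 markers of sympathetic and neuroblastoma cells 15 had counts, among them HAND2, and TH, the enzyme that starts catecholamine synthesis, was among those too low to test. Their summed level was 1223 to 1392 CPM with the TARDBP hairpin, 2911 to 3139 with control hairpin 1 and 2117 to 2258 with control hairpin 2. All 8 Schwann and glial markers together stayed between 1.69 and 3.17 CPM, and 4 endothelial markers between 0.363 and 1.32 CPM. The 9 fibroblast and mesenchymal markers, none of them at 0, summed to 855 to 865, 2045 to 2087 and 4320 to 4648 CPM in the same group order. The 5 immune markers summed to 5.92 to 9.87, 6.67 to 6.90 and 16.4 to 19.5 CPM. Of these 5, 4 averaged below 1 CPM, 1 of them without a count, and only 1 had enough counts to be tested. The immune sum thus rests mainly on 1 gene. Within the fibroblast list 6 fell and 2 rose against the mean of both controls, COL3A1 and FN1 at -4.65 and -1.12 but DCN and PDGFRA at 2.43 and 1.87. The part of these shifts in the values of the domain was not tested. In bulk RNA, fewer cells of a type and less RNA per cell cannot be told apart.

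DLK1 was at 10.4 and 8.98 CPM with the TARDBP hairpin (202 and 173 counts). With control hairpin 1 it was at 93.1 and 199.7 CPM (1828 and 4082 counts), and with control hairpin 2 at 51.2 and 103 CPM (974 and 2192 counts). The TARDBP hairpin libraries were the lowest, while the ranges of the control groups overlapped. The group means were 9.71 ± 1.03, 146 ± 75.4 and 77.2 ± 36.7 CPM (SD, n = 2). The fitted log2 fold change of the TARDBP hairpin was -3.45 against the mean of both controls (SE 0.410), a level 11.0-fold lower. It was -3.91 against control hairpin 1 (SE 0.438) and -2.99 against control hairpin 2 (SE 0.430). These comparisons share the TARDBP hairpin libraries. Between the controls, hairpin 2 minus hairpin 1 was -0.92 (SE 0.374), and without replicate 2 of control hairpin 1, the library with the highest DLK1, it was -0.27.

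RTL1, whose protein descends from the Gag and Pol of a Ty3-type element, was at 7.50 and 5.61 CPM with the TARDBP hairpin (145 and 108 counts). It stood at 99.3 and 121.6 CPM with control hairpin 1 (1950 and 2484 counts) and at 67.0 and 94.8 CPM with control hairpin 2 (1274 and 2014 counts). Here the groups did not overlap, in the order control hairpin 1, control hairpin 2, TARDBP hairpin. The control groups also did not overlap for 74.8% of all genes and families tested, and 37.8% were lower in both control hairpin 2 libraries, as RTL1 was. Means were 6.55 ± 1.34, 110.4 ± 15.7 and 80.9 ± 19.7 CPM (SD, n = 2). The log2 fold change of the TARDBP hairpin was -3.85 against the mean of both controls (SE 0.206), 14.4-fold lower, with -4.07 against control hairpin 1 (SE 0.218) and -3.63 against control hairpin 2 (SE 0.217). The difference between the controls, hairpin 2 minus hairpin 1, was -0.45 (SE 0.180).

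MEG3, the noncoding RNA that opens the maternal side of the domain, was listed at 0 in 5 libraries and had 1 count in replicate 2 of control hairpin 1. A count of 0 allows up to 3 counts, which is 0.141 to 0.158 CPM depending on the library. The 95% exact Poisson interval of 1 count reaches 5.57 counts over the 6 libraries, or 0.047 CPM. Such intervals cover counting error only. MEG3 could not be compared between hairpins at this depth. MIR770, which lies within the MEG3 gene in GENCODE v29, was at 0 in all 6 libraries.

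MEG8 was detected at low level in every library. It was at 0.414 and 0.830 CPM with the TARDBP hairpin (8 and 16 counts), 0.255 and 0.979 CPM with control hairpin 1 (5 and 20 counts), and 0.842 and 0.659 CPM with control hairpin 2 (16 and 14 counts). All 3 groups overlapped. The log2 fold change of the TARDBP hairpin against the mean of both controls was -0.13 (SE 0.528), with a 95% interval from the fit of -1.34 to 1.08. In GENCODE v29 the first exons of RTL1 lie within MEG8 on the opposite strand, so some RTL1 reads could be counted to MEG8 or the reverse, which was not tested. The interval holds changes of more than 2-fold in either direction. Against control hairpin 1 the MEG8 value was 0.00 and turned to 1.26 without replicate 2 of that control.

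**Figure D1:**
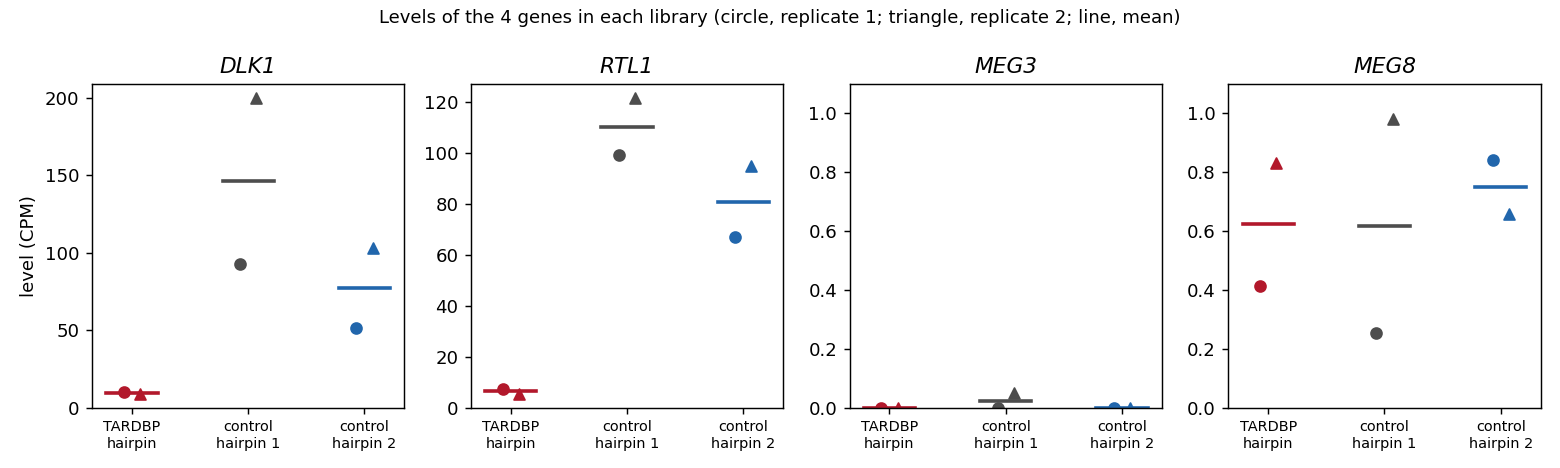
Level in CPM (vertical axis, starting at 0 and scaled per gene) of DLK1, RTL1, MEG3 and MEG8 by hairpin group, with replicate 1 as a circle, replicate 2 as a triangle and the mean as a line. DLK1 and RTL1 lie below 11 CPM in both TARDBP hairpin libraries and above 51 CPM in every control library, whereas MEG3 lies at or near 0 and the MEG8 groups overlap.

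Levels of different genes were compared per length, using the union of exons in GENCODE v29, which is on another build than the hg19 named for these files and need not match the models counted. These lengths were 5312 bases for DLK1, 5398 for RTL1, 23224 for MEG3 and 11109 for MEG8. Per kilobase, DLK1 stood at 27.6 ± 14.2 CPM with control hairpin 1 and 14.5 ± 6.92 with control hairpin 2 (SD, n = 2). RTL1 stood at 20.5 ± 2.91 and 15.0 ± 3.64 CPM per kilobase in the same groups. The SDs of DLK1 were wide with n = 2, so these values cannot show whether the coding genes differed from each other. MEG8 stood at 0.0555 ± 0.0461 and 0.0676 ± 0.0116 CPM per kilobase there, far below both. With the TARDBP hairpin the levels per kilobase were 1.83 ± 0.195 for DLK1, 1.21 ± 0.248 for RTL1 and 0.0560 ± 0.0265 for MEG8.

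Set side by side, the coding and the noncoding genes had different shares of the domain's counts in the hairpin groups. The ratio of DLK1 plus RTL1 to MEG3 plus MEG8 counts, which does not depend on how libraries are scaled, was 43.4 and 17.6 with the TARDBP hairpin. Control hairpin 1 gave 756 and 313, and control hairpin 2 gave 140.5 and 300.4. The TARDBP hairpin libraries had the lowest ratios. The control groups lay next to each other, with 313 from 21 noncoding counts and 300.4 from 14, so their order is not read as a difference. On the log2 scale the ratio was 4.79 ± 0.92, 8.92 ± 0.90 and 7.68 ± 0.78 (SD, n = 2). The noncoding genes made up 2.25% of the 4 genes' counts in replicate 1 of the TARDBP hairpin (95% exact Clopper-Pearson interval 0.978 to 4.39%) and 5.39% in replicate 2 (3.11 to 8.60%). In the control libraries the share ran from 0.132% (0.0429 to 0.308%) to 0.707% (0.404 to 1.15%). These intervals cover counting error within a library only. The noncoding sum was 8 and 16 counts with the TARDBP hairpin and 5 to 21 counts in the controls, while the coding sum was 347 and 281 against 2248 to 6566. Between replicates of the TARDBP hairpin and of control hairpin 1 the ratio differed mainly through these few noncoding counts. Only 1 of these noncoding counts came from MEG3, which makes this in effect a ratio to MEG8.

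**Figure D2:**
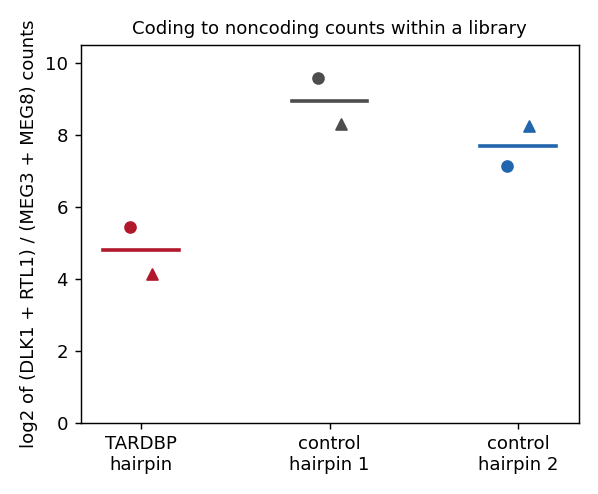
Log2 of the summed DLK1 and RTL1 counts over the summed MEG3 and MEG8 counts in each library (vertical axis, starting at 0), by hairpin group, with the mean as a line. The TARDBP hairpin libraries sit at 5.44 and 4.13 and all control libraries at 7.13 or above.

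The ratio of RTL1 to DLK1 counts varied between libraries, also within a hairpin group. RTL1 had 0.718 and 0.624 counts per DLK1 count with the TARDBP hairpin, against 1.07 and 0.609 for control hairpin 1 and 1.31 and 0.919 for control hairpin 2. The ranges of the TARDBP hairpin and control hairpin 1 overlapped, while both control hairpin 2 libraries lay above the TARDBP hairpin libraries. With the control hairpins the replicates differed more for DLK1 than for RTL1. Replicate 2 was 2.14-fold above replicate 1 with control hairpin 1 and 2.01-fold with control hairpin 2 for DLK1, against 1.22-fold and 1.41-fold for RTL1. With the TARDBP hairpin replicate 2 was 0.860 times replicate 1 for DLK1 and 0.748 times for RTL1. A difference of at least 1.5-fold in that direction with both control hairpins was seen in 1.68% of all genes and families tested.

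The rows of the 5 microRNA hairpins inside the RTL1 exon held counts where RTL1 was high. Together they had 4 and 2 counts with the TARDBP hairpin, against 27 and 48 for control hairpin 1 and 31 and 64 for control hairpin 2. The TARDBP hairpin libraries were again the lowest and the control groups overlapped. The 47 other microRNA rows of the domain held 14 counts in all 6 libraries together, 37 of them were at 0 throughout, and none exceeded 3 counts. The 38 rows of the SNORD113 and SNORD114 small nucleolar RNA genes, which lie within MEG8 in GENCODE v29, held 48 counts in all, with 8, 19 and 21 in the 3 groups.

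Relative to hairpin and RTL1 counts together, the 5 hairpin rows took 2.68% and 1.82% with the TARDBP hairpin, against 1.37% and 1.90% for control hairpin 1 and 2.38% and 3.08% for control hairpin 2. The exact intervals with the TARDBP hairpin were 0.736 to 6.73% and 0.221 to 6.41%. They rest on 4 and 2 hairpin counts and cover counting error within a library only. They are too wide to show whether the share differed between the hairpin groups. The hairpins span 480 bases, or 8.89% of the RTL1 exon length. The libraries were made with a strand-specific kit, but the sources used here do not give the strand setting of the counting, so reads of RTL1 and of its antisense partner cannot be told apart in these rows. Libraries of long RNA also do not measure mature microRNAs. MIR432 had 0 and 1 counts with the TARDBP hairpin and 8 to 12 in each control library, and MIR433 had 0 and 1 against 5 to 29. Both rows passed the low-count filter only through the control libraries, so no test of them is given.

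**Figure D3:**
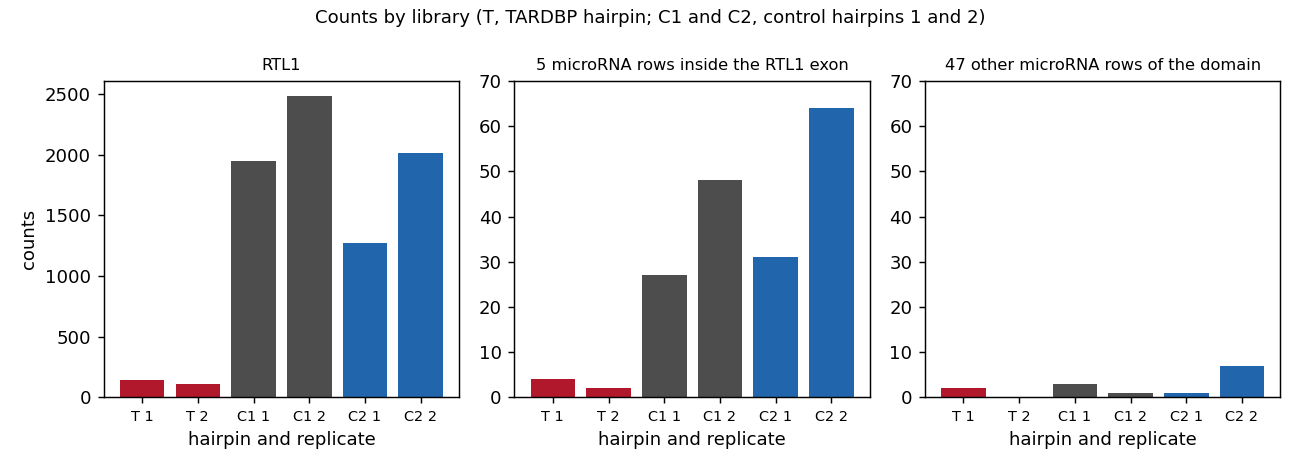
Counts in each library (vertical axes, from 0) of RTL1, of the 5 microRNA rows inside its exon and of the 47 other microRNA rows of the domain, with the TARDBP hairpin in red, control hairpin 1 in grey and control hairpin 2 in blue. The rows inside the RTL1 exon reach 64 counts in control libraries and at most 4 with the TARDBP hairpin, and the other rows stay at 7 or below.

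At the far end of the domain, DIO3 and its antisense RNA had another order. DIO3 encodes the deiodinase that inactivates thyroid hormone. It was at 0.465 and 0.623 CPM with the TARDBP hairpin, against 0.102 and 0.343 CPM for control hairpin 1 and 2.53 and 4.28 CPM for control hairpin 2. Both control hairpin 2 libraries were the highest. The fitted log2 fold change between the controls, hairpin 2 minus hairpin 1, was 3.89 (SE 0.499). The TARDBP hairpin was at -2.64 against control hairpin 2 (SE 0.429), 1.25 against control hairpin 1 (SE 0.665) and -0.69 against the mean of both (SE 0.510). DIO3 had 2 to 12 counts a library outside control hairpin 2 and passed the low-count filter through that group, so no test of it is given.

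DIO3OS, the noncoding RNA antisense to DIO3, followed a like order at 0.674 ± 0.222, 0.123 ± 0.102 and 1.17 ± 0.0139 CPM (SD, n = 2; TARDBP hairpin, control hairpins 1 and 2). Control hairpin 1 gave DIO3OS only 1 and 4 counts. The TARDBP hairpin gave it 10 and 16, and control hairpin 2 gave it 22 and 25. The fitted log2 fold change between the controls, hairpin 2 minus hairpin 1, was 3.16 (SE 0.555). For the TARDBP hairpin against control hairpin 1 it was 2.38 (SE 0.615), and ran from 1.74 to 3.56 when 1 library was left out. DIO3OS passed the low-count filter mainly through control hairpin 2, so no test of it is given. Of all genes and families tested, 43.2% were called between the control hairpins, 22.8% higher with control hairpin 2 and 20.4% lower. The rows of DIO3 and DIO3OS held at most 91 and 25 counts a library.

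Outside the domain, BEGAIN, which encodes a postsynaptic density protein and is the nearest coding gene on the DLK1 side, was at 26.8 ± 2.19 CPM with the TARDBP hairpin. It was at 83.9 ± 2.67 and 60.8 ± 1.96 CPM with control hairpins 1 and 2, with no overlap. Of all rows tested, 22.8% had both TARDBP hairpin libraries below all 4 control libraries, and 74.8% had control groups that did not overlap. BEGAIN fell by 1.42 on the log2 scale against the mean of both controls (SE 0.0900, edgeR adjusted p = 1.51e-05). The next gene, WDR25, was at -0.36 (SE 0.172, edgeR adjusted p = 0.119) and was called without replicate 1 of the TARDBP hairpin (-0.68, adjusted p = 0.0173). PPP2R5C, a phosphatase subunit gene beyond DIO3, was at 0.08 (edgeR adjusted p = 0.353) and was called with upper quartile scaling (0.21, edgeR adjusted p = 0.0379).

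Of the 19 tested neighbours listed on both sides, 8 fell and 1 rose, with a median log2 fold change of -0.22 against 0.04 over all genes and families tested. Of all rows tested 24.3% were called lower and 23.9% higher. The rise was HHIPL1 (1.50, SE 0.190), and falls included EML1 (-0.86, SE 0.0970), a microtubule-associated protein gene, and RCOR1 (-0.78, SE 0.100), a corepressor gene. None of the 19 neighbours had a change as large as those of DLK1 and RTL1 against either control.

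**Figure D4:**
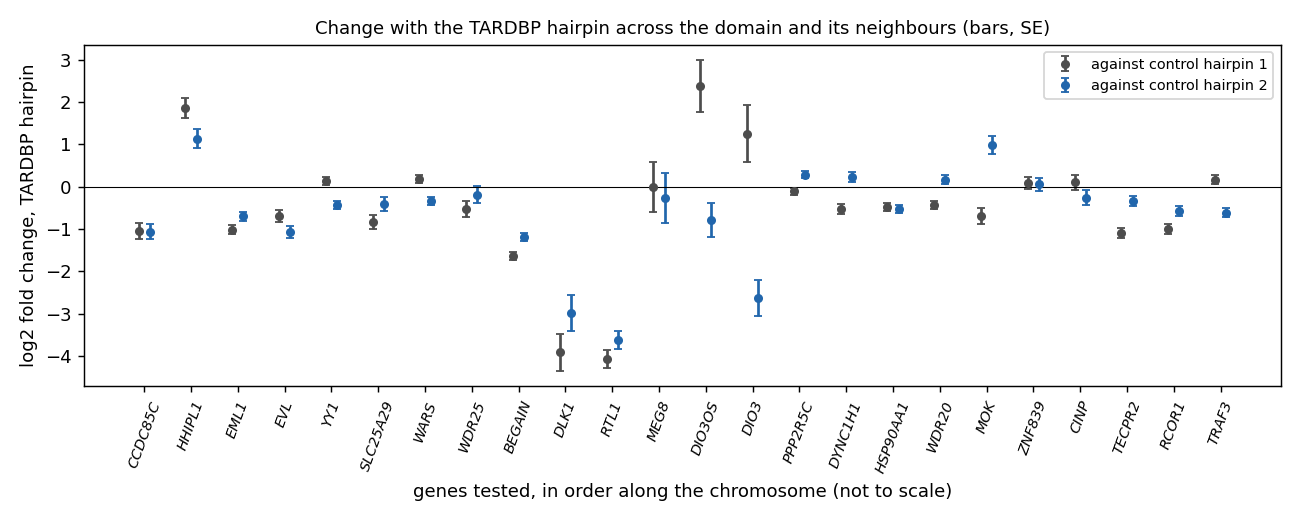
Fitted log2 fold change of the TARDBP hairpin against control hairpin 1 (grey) and control hairpin 2 (blue), with SE bars, for the tested genes in their order along the chromosome, which is not to scale. DLK1 and RTL1 are at -2.99 or below against each control, MEG8 is near 0, and DIO3OS and DIO3 lie on opposite sides of 0 for the control hairpins.

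A profile over the 6 libraries was compared with those of 10333 other genes whose mean log2 CPM was 3 or more, by the root mean square difference after centring each gene on its own mean. The nearest gene to both DLK1 and RTL1 was DBH, which encodes dopamine beta-hydroxylase, the enzyme that makes noradrenaline. The difference was 0.16 log2 units for RTL1 (Pearson's r = 0.996) and 0.37 for DLK1 (r = 0.984). DBH itself was at 25.5 and 14.7 CPM with the TARDBP hairpin, against 288 and 429.98 CPM for control hairpin 1 and 184 and 272 CPM for control hairpin 2. CPED1 came next for both (0.38 for RTL1 and 0.39 for DLK1), and DLK1 and RTL1 were each the third nearest of the other (0.40, r = 0.977). With 6 libraries in 3 groups such values are common, as 731 genes reached r of 0.95 with RTL1 and 363 with DLK1. Of the 14 sympathetic markers tested, 10 fell and 2 rose against the mean of both controls, with a median log2 fold change of -0.80. DBH is itself on this list, at -3.83, so these counts are not independent of its likeness to DLK1 and RTL1. Over all rows tested 24.3% were called lower and 23.9% higher, with a median of 0.04. Genes of secretory vesicles fell, CHGA by 3.10 (SE 0.183) and CHGB by 2.25 (SE 0.0891). STMN2, a microtubule regulator of growing axons, fell by 1.95 (SE 0.0999), and SLC6A2, the noradrenaline transporter, fell by 1.24 (SE 0.0943). The rises were GATA3 (0.35), not called without replicate 1 of the TARDBP hairpin (edgeR adjusted p = 0.103), and PNMT (1.53), which had 15 and 13 counts with the TARDBP hairpin against 3 to 6 in each control library and passed the low-count filter only through the TARDBP hairpin libraries. GATA3 was at 0.16 against control hairpin 1 alone (edgeR adjusted p = 0.218). Whether these genes and DLK1 or RTL1 moved for a shared reason was not tested. MEG8 had no close profile, its nearest being METTL7A (0.36, r = 0.783), ANKRD30BL (0.38) and SCN9A (0.39).

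**Figure D5:**
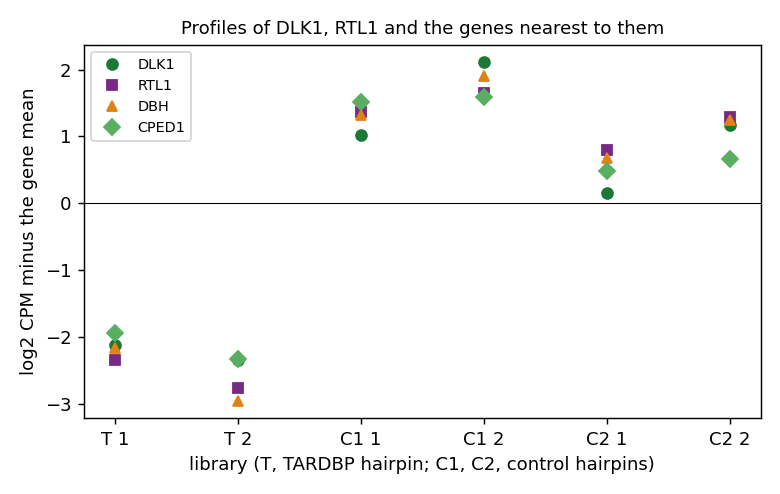
Log2 CPM minus the gene's own mean (vertical axis) in each of the 6 libraries for DLK1, RTL1, DBH and CPED1. All 4 genes lie below 0 in both TARDBP hairpin libraries and above 0 in the control libraries, with RTL1 and DBH closest together.

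Genes of imprint maintenance and of silencing more broadly, Polycomb genes among them, were counted from a list. Of 19 tested, 10 fell and 2 rose with the TARDBP hairpin against the mean of both controls, with a median log2 fold change of -0.40 (all rows 24.3% lower, 23.9% higher, median 0.04). UHRF1, which brings the maintenance methyltransferase to newly copied DNA, fell by 2.11 (SE 0.117, edgeR adjusted p = 9.33e-06). The demethylase gene TET3 fell by 1.12 (SE 0.0806), and the methyltransferase genes DNMT3A by 0.71 (SE 0.0755) and DNMT3B by 1.63 (SE 0.198). The size depended on the control for UHRF1, at -1.37 against control hairpin 1 alone and -2.85 against control hairpin 2 alone. For TET3 these values were -1.46 and -0.78. The rises were the Polycomb subunit genes EED (0.58, SE 0.105) and SUZ12 (0.41, SE 0.0826), but SUZ12 was at 0.08 against control hairpin 1 alone (edgeR adjusted p = 0.536). ZFP57, a zinc finger gene that protects imprints, had no count. ZNF445, another zinc finger gene of the list, had 1377 to 2014 counts a library. It was at -0.18 against the mean of both controls (SE 0.102, edgeR adjusted p = 0.185).

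DLK1 belongs to the Delta family without the domain that activates Notch. Of 24 tested genes of the Notch pathway 6 fell and 5 rose, with a median log2 fold change of -0.06, shares near the 24.3% lower and 23.9% higher of all rows. DNER, another Notch ligand gene outside the classical set, fell from 15.2 ± 3.36 and 6.59 ± 2.06 CPM to 2.20 ± 0.836 CPM (log2 fold change -2.18, SE 0.292, edgeR adjusted p = 5.22e-04). ADAM17, whose protease cuts the DLK1 ectodomain from the cell surface, fell by 0.50 (SE 0.0850). The receptor gene NOTCH3 rose by 0.87 (SE 0.0902) and the target gene HES1 by 1.45 (SE 0.181). HES1 differed between the control hairpins, at 3.33 ± 1.32 and 14.2 ± 1.13 CPM against 18.8 ± 1.99 with the TARDBP hairpin, and against control hairpin 2 alone its log2 fold change was 0.40 (edgeR adjusted p = 0.130). The other rises were MAML2 (0.54), not called without replicate 1 of the TARDBP hairpin (0.45, edgeR adjusted p = 0.0704) and at -0.21 against control hairpin 2 alone (edgeR adjusted p = 0.267), NUMB and NUMBL. NUMB (0.48) was not called without replicate 2 of the TARDBP hairpin (0.30, edgeR adjusted p = 0.0856) and was at 0.23 against control hairpin 1 alone (adjusted p = 0.172). NUMBL (0.25) was not called when any 1 of the 6 libraries was left out (edgeR adjusted p = 0.0734 to 0.180). DLK2, the closest relative of DLK1, was at -0.50 (SE 0.221, edgeR adjusted p = 0.0960).

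RTL1 has relatives derived from the same kind of retrotransposon. Of 8 tested, 6 fell and 1 rose, with a median log2 fold change of -0.67, where 24.3% of all rows were lower and 23.9% higher. PEG10, an imprinted relative needed for placenta formation, fell by 4.64 (SE 0.111), from 164 ± 13.3 and 722 ± 45.0 CPM to 13.8 ± 0.479 CPM. RTL10 fell by 1.01 (SE 0.106) and RTL8A by 0.89 (SE 0.106), while RTL5 rose by 0.76 (SE 0.0767). Unlike RTL1, PEG10 was higher with control hairpin 2 than with control hairpin 1 (2.14, SE 0.0996, edgeR adjusted p = 1.64e-05).

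Among 34 tested imprinted genes of other domains, 11 fell and 10 rose, with a median log2 fold change of 0.19. The shares over all rows were 24.3% lower and 23.9% higher, with a median of 0.04. In the IGF2-H19 domain the paternally expressed coding gene and the maternally expressed noncoding gene were both lower. IGF2, which had 8 and 5 counts with the TARDBP hairpin and passed the low-count filter through the controls, was at -6.72 (SE 0.502) and H19 fell by 5.46 (SE 0.367). The size for IGF2 depended on the control, at -8.20 against control hairpin 1 alone and -5.24 against control hairpin 2 alone. IGF2 was at 101 ± 13.1 and 12.9 ± 7.42 CPM with control hairpins 1 and 2 (SD, n = 2). H19 was at 13.8 ± 1.32, 1599 ± 257 and 230.1 ± 125 CPM (SD, n = 2; TARDBP hairpin, control hairpins 1 and 2), where MEG3 had 1 count in all. The small nuclear ribonucleoprotein gene SNRPN was called higher by 0.96 against the mean of both controls (SE 0.0926) but was at 0.08 against control hairpin 2 alone (edgeR adjusted p = 0.580). DDC fell by 1.73 (SE 0.177).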

How the data were processed

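RNA from 6 SH-SY5Y libraries was sequenced. The deposited values were raw counts, whole numbers with 1 row for each gene symbol and repeat family, per the file headers. Per the submitters' processing notes, bcl2fastq, STAR 2.5.2b and build hg19 were used by the authors. The sources used here do not give the counting tool, its annotation or strand setting, or how multiply mapped reads were handled.

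Of 28953 rows, 17163 passed edgeR's filterByExpr (minimum count 10, minimum total 15), among them DLK1, RTL1 and MEG8 but not MEG3. The counts were scaled by TMM and fitted in R 4.3.3 with edgeR 4.0.16, as 1 quasi-likelihood model with 3 groups and 3 residual degrees of freedom. A call needed a Benjamini-Hochberg adjusted p under 0.05, adjusted over every row tested. Each SE is the size of the log2 fold change divided by the root of F. Profiles used a prior count of 2. The code was tested on simulated data. DESeq2 1.42.0 served as an alternative. The alternatives were other scalings, genes only, no filter, DESeq2, a replicate block, fewer groups and leaving out each library.

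The 4 genes and all lists were chosen with earlier results of these data known. Named were all domain genes with at least 10 counts, the direct neighbours, from the lists up to 4 called genes with the lowest p and all of a count of 5 or fewer, and the 3 nearest profiles. Genes named outside this rule were chosen after their values were seen.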

Additional observations from a re-analysis of the deposited data

How the results depend on the processing

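DLK1 and RTL1 kept their direction against the mean of both controls in all 13 alternatives, at -3.68 to -3.13 and -4.08 to -3.66 when 1 library was left out. MEG8 ran from -0.71 to 0.49 there. The coding minus noncoding log2 difference ran from -4.17 to -2.87. Without replicate 2 of control hairpin 1, DLK1 against that control was -3.27, and MEG8 was 1.26 against it (lowest value with a library left out -0.66) and 1.52 between the controls. The 7418 calls between the controls ranged from 4328 to 7344 when 1 library was left out, with 4328 without replicate 1 of control hairpin 1 and 4339 without replicate 2 of control hairpin 2, where fewer libraries were tested. MIR432 between the controls, at 0.06, turned to -0.12 and -0.16 without these libraries (-0.16 to 0.27 over all), and MIR433, at 0.83, to -0.13 without the latter (-0.13 to 1.84); the cause was not tested. Over all rows tested, deviations of same-numbered libraries correlated at -0.23 and -0.25 between TARDBP hairpin and control libraries and at 0.23 between the controls. For DLK1, replicate 2 was the higher with both control hairpins. Its SE against the mean of the controls was 0.277 with the replicate block and 0.410 without. With the replicate block the calls numbered 7643, 6745, 7973 and 6670 against the mean of the controls, control hairpins 1 and 2 and between the controls, from 8269, 7364, 8618 and 7418. DLK1 was -3.34, RTL1 -3.83 and MEG8 -0.14 with the block against the mean of the controls. Upper quartile scaling moved the median log2 fold change of all rows against the mean of the controls from 0.04 to 0.17, and the share of calls that were higher from 49.6 to 63.4%. Low counts limit MEG3, MEG8 (5 to 20 a library) and the microRNA rows.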
